A study of Mus musculus with 18 samples.

Results

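Gene expression was compared between mandibular bone and Meckel's cartilage (MC) of control mouse embryos at embryonic day 16.5. The libraries were chosen by their labels and not by measured values, and were the *Fgfr2+/+* (WT) libraries of these tissues, 3 of mandibular bone and 3 of MC, which are 6 of the 18 libraries of the series. The series was made to study how the *Fgfr2+/S252W* mutation, a change in the gene of fibroblast growth factor receptor 2 that is found in Apert syndrome, acts on the mandible. The other 12 libraries were mandibular condylar cartilage of the WT embryos and all 3 tissues of *Fgfr2+/S252W* embryos. All embryos were labelled as female and of the C57BL/6 strain (C57BL6/J in the methods of the study), the WT embryos were unaffected littermates, and no further allele or treatment was labelled. Tissues were cut by laser capture from frozen sections of the head, and the RNA was amplified before sequencing, so that a library holds every cell within the captured outline. The 3 WT embryos were numbered 1 to 3 in each tissue, and that a number stands for 1 embryo in both tissues was inferred from the library codes.

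MC is a rod of cartilage that forms in the mandibular arch ahead of the bone and serves as a scaffold of the early lower jaw. Mandibular bone forms beside it by intramembranous ossification, in which mesenchymal cells become osteoblasts without a cartilage template. Osteoblasts secrete a matrix of type I collagen and mineralize it, some become osteocytes within it, and osteoclasts of the blood lineage resorb it. Chondrocytes secrete types II, IX and XI collagen and the large proteoglycan aggrecan, under the transcription factors SOX9, SOX5 and SOX6.

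Between 10966635 and 12623521 fragments were counted on genes in the bone libraries and between 9510261 and 10559607 in the MC libraries. Levels are given as FPKM (fragments scaled to exon length and to the normalized depth of the library), always in the order of embryos 1, 2 and 3. Differences are bone over MC on the log2 scale, with the standard error (SE) of the linear model. Mitochondrial genes took 20.4% to 36.0% of the fragments in bone and 26.3% to 38.1% in MC. *Gm42418*, a locus that overlaps the ribosomal RNA repeat, took 8.57% to 9.33% in bone and 24.1% to 39.4% in MC, so fewer fragments were left for other genes in MC. In such bulk samples, fewer cells of a type and less RNA per cell cannot be told apart.

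The labelled tissues were checked by 5 osteoblast and 5 chondrocyte markers, and WT MC replicate 1 stood apart from the other MC libraries. *Bglap*, which encodes osteocalcin, had 11.7, 17.8 and 26.7 FPKM in bone and no fragment in MC. *Col2a1*, the chain of type II collagen, had 19.6, 7.10 and 33.9 FPKM in bone, and 40.6, 467 and 473 FPKM in MC. Replicate 1 of MC therefore lay close to bone for this defining chondrocyte gene, and the other MC libraries lay more than 10 times higher. *Sox9* was at 3.56 FPKM in MC replicate 1, below bone replicates 1 to 3 (4.10, 3.62 and 4.95), against 18.2 and 15.3 in the other MC libraries. Of the osteoblast markers, *Ibsp* was at 109 FPKM in MC replicate 1 against 3.39 and 2.10, *Sp7* at 53.0 against 5.52 and 8.11, and *Runx2* at 62.0 against 19.9 and 9.64. *Matn1*, a cartilage matrix protein, was at 0.136, 1.94 and 11.8 FPKM in MC. It exceeded 1 FPKM only in MC replicates 2 and 3, which were too few libraries for it to be tested. Across genes, MC replicate 1 correlated with the bone libraries at r = 0.836 to 0.860, and the other MC libraries at 0.763 to 0.794. With MC replicates 2 and 3 it correlated at 0.848 and 0.852, no more closely than with bone. MC replicates 2 and 3 correlated with each other at 0.872, and the bone libraries at 0.962 to 0.965. All MC libraries also held bone collagen, with *Col1a1* at 470, 338 and 238 FPKM against 1990, 1290 and 3890 in bone. Whether captured osteogenic tissue contributed to MC replicate 1 was not tested, and the results below are given with and without this library where it mattered.

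**Figure D1:**
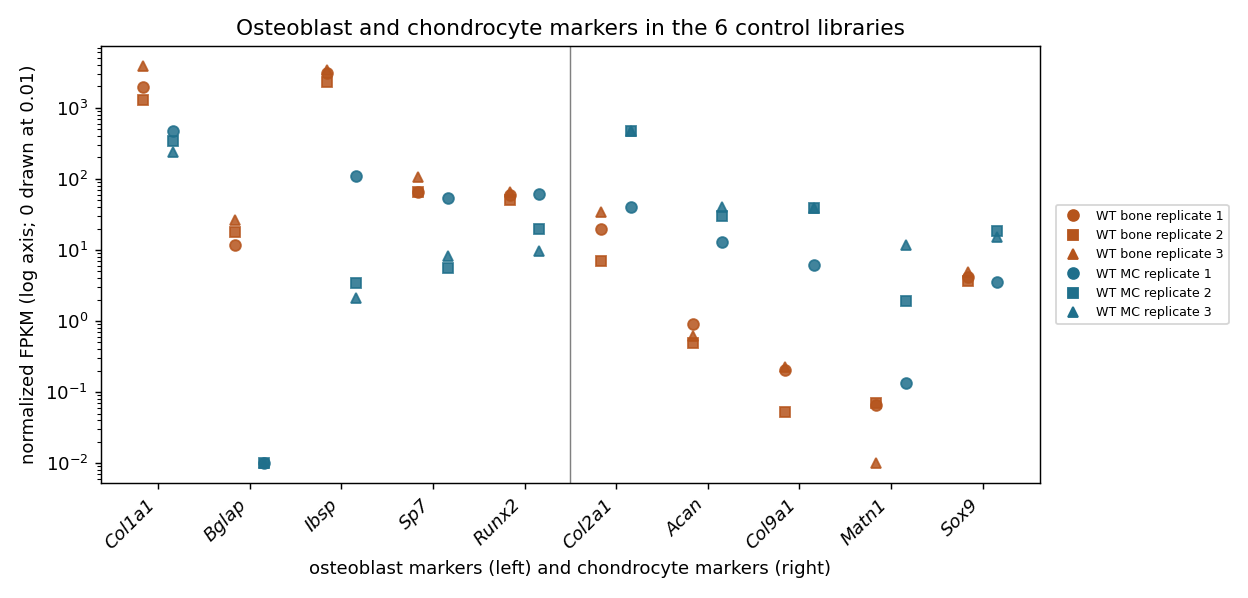
Normalized FPKM on a log axis of 5 osteoblast markers (left of the line) and 5 chondrocyte markers (right) in each WT bone (orange) and WT MC (blue) library, with 1 symbol shape per embryo and values of 0 drawn at 0.01. MC replicate 1 (blue circles) lay nearer to bone than the other MC libraries for *Ibsp*, *Sp7*, *Runx2*, *Col2a1*, *Col9a1* and *Sox9*, whereas *Bglap* was at 0 in all MC libraries.

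Of 12079 genes tested, 3964 (32.8%) differed between bone and MC at a limma adjusted p below 0.05. Among them 2079 (17.2% of the genes tested) were higher and 1885 (15.6%) were lower in bone, and 2708 (22.4%) differed by more than 2-fold, 12.4% higher and 10.1% lower. For 41.3% of all genes the 3 libraries of each tissue did not overlap, with bone above MC for 22.8% and below it for 18.5%. The median difference over all genes was 0.01. Without MC replicate 1, 2186 genes (18.1%) were higher and 2113 (17.5%) lower. Of the 3964 genes, 3347 (84.4%) passed again in the same direction, and none of the 3964 changed direction. Without WT bone replicate 2 the number fell to 2556 genes. Strong differences were found over the whole range of expression, from *Cytl1* at low levels to *Sparc* and type I collagen at high levels.

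**Figure D2:**
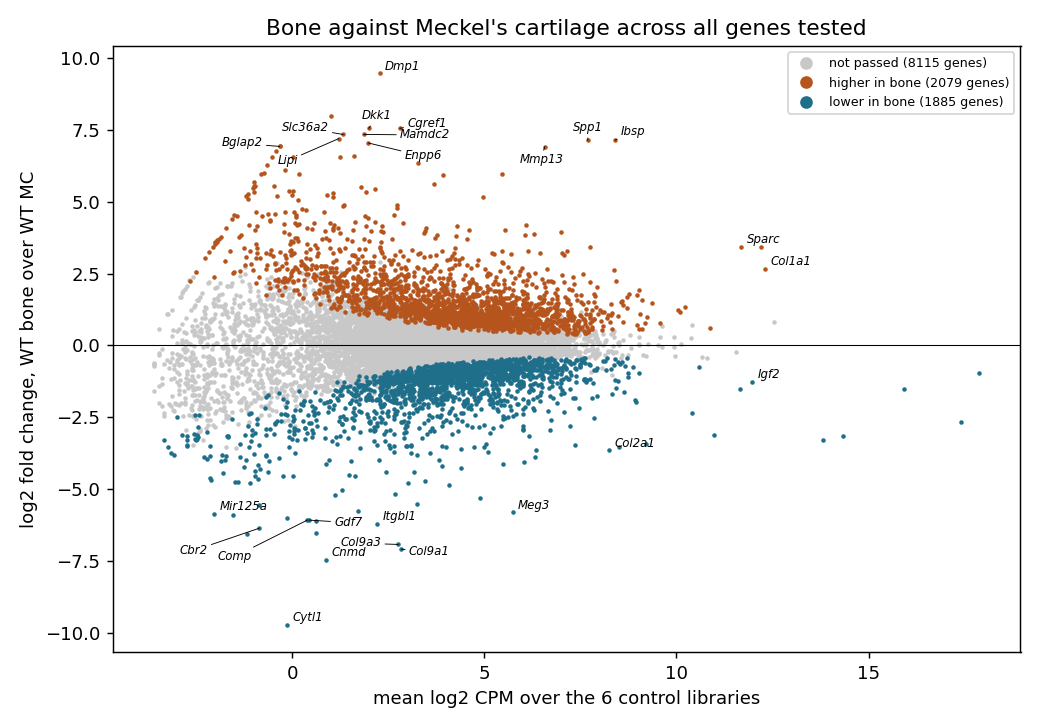
Fitted log2 fold change of WT bone over WT MC against the mean log2 CPM (counts scaled to depth) over the 6 libraries, with 1 point for each of the 12079 genes and the leading genes named. Orange points are the 2079 genes that were higher and blue points the 1885 that were lower in bone, and fitted values of genes with no fragment in a tissue depend on the small count the model adds.

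The same comparison was made in the 3 *Fgfr2+/S252W* embryos, which share no library with the WT embryos. There 4376 genes (36.2%) passed, 18.8% higher and 17.4% lower in bone. Of the 3964 genes that differed in WT embryos, 3835 (96.7%) had the same direction in *Fgfr2+/S252W* embryos, and 2807 (70.8%) also passed in that direction. Of the genes that did not pass in WT embryos, 71.4% had the same direction. The tissue difference itself differed between genotypes in 4 genes (0.0331%), which are given among the additional observations.

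**Figure D3:**
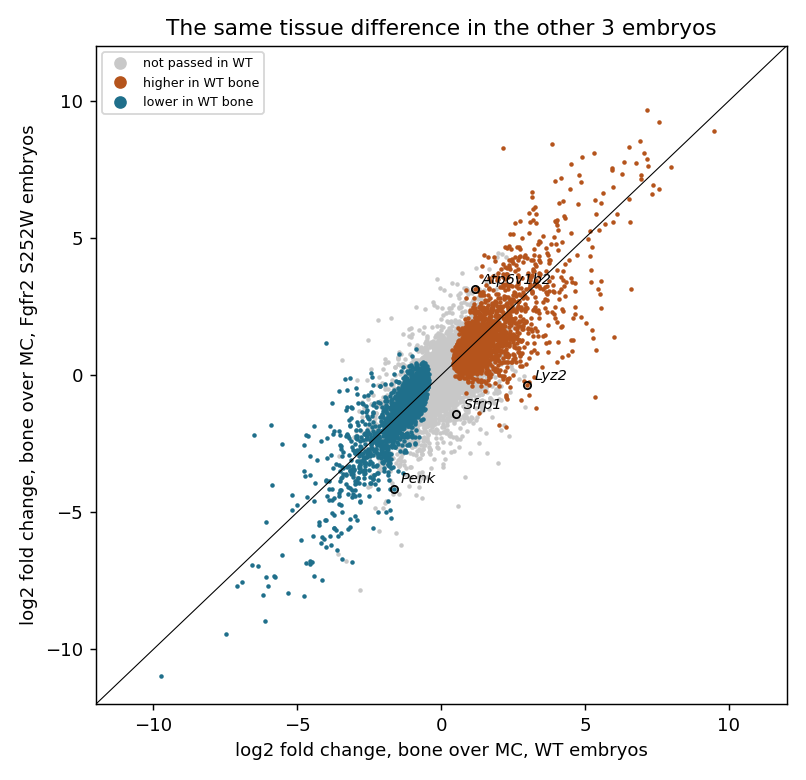
Log2 fold change of bone over MC in the 3 *Fgfr2+/S252W* embryos against that in the 3 WT embryos for each of the 12079 genes, with equality as a line. Genes that were higher (orange) or lower (blue) in WT bone lay mostly in the quadrants of the same sign, 96.7% of them, and open circles mark *Penk*, *Sfrp1*, *Lyz2* and *Atp6v1b2*, for which the difference changed with genotype.

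Genes of the bone matrix were higher in bone throughout. All 12 tested of 13 listed genes passed, against 17.2% of all genes in that direction. The median difference was 4.85 (4.53 with genes absent from MC set at their lower bounds). Members below 1 FPKM in every MC library, such as *Bglap*, *Bglap2* and *Dmp1*, could be tested only through high bone libraries. The direction of such members was set by the filter. The listed genes included the collagen chains, the phosphorylated glycoproteins that bind mineral and the proteins of osteocytes. *Sparc*, a collagen-binding glycoprotein, was the most abundant of them, with 3630, 4500 and 6400 FPKM in bone and 463, 445 and 402 FPKM in MC. The libraries of each tissue were close to each other and far from those of the other tissue, and the difference was 3.43 (SE 0.22, limma adjusted p = 1.16e-07). *Col1a2*, the second chain of type I collagen, had 2310, 2010 and 4810 FPKM in bone and 355, 244 and 197 FPKM in MC, a difference of 3.44 (SE 0.30), and *Col1a1* differed by 2.67 (SE 0.38). *Ibsp*, which encodes bone sialoprotein, had 3070, 2330 and 3370 FPKM in bone and 109, 3.39 and 2.10 FPKM in MC. Its difference of 7.15 (SE 0.85) was 10.17 without MC replicate 1, which held most of the fragments of this gene in MC.

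*Spp1*, the gene of osteopontin, ran the other way within MC. It had 1360, 1730 and 1370 FPKM in bone and 2.20, 26.6 and 20.3 FPKM in MC, so that MC replicate 1 was the lowest. The difference was 7.14 (SE 0.77) with that library and 5.99 without it. *Dmp1*, a marker of osteocytes, had the largest difference toward bone of the genes named by size, at 9.47 (SE 1.31; 8.14 to 11.32 with any 1 library left out), with 47.8, 32.2 and 69.1 FPKM in bone. In MC only replicate 2 held any fragments of it, at 0.468 FPKM. *Mepe*, a further osteocyte gene, was at 2.16, 0.931 and 4.44 FPKM in bone and had no fragment in MC, which places it at least 32.8-fold higher in bone when MC is set at 3 fragments over its libraries. By the same bound *Bglap* was at least 61.8-fold and *Bglap2* at least 68.3-fold higher, although these neighbouring copies are so alike that fragments can be lost between them. *Ifitm5*, which is restricted to osteoblasts, had 284, 290 and 349 FPKM in bone and 34.0, 4.95 and 16.6 FPKM in MC (difference 4.02, SE 0.37). *Omd*, a keratan sulfate proteoglycan of bone, was the only member whose libraries overlapped between tissues, with 70.3, 96.9 and 30.5 FPKM in bone and 36.3, 5.10 and 5.01 FPKM in MC.

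The bases before the start site of 5 leading genes are shown because they set the promoters of bone genes beside those of cartilage genes. Sequences are from RefSeq on GRCm38.p6, 5′ to 3′ on the strand of the gene, and end at the base before the start. Capitals mark TGTGGT or ACCACA, the core that RUNX factors bind read on either strand, and TATAAA, the letters of a TATA box. These letters do not overlap.
*Bglap* (chr3:88384467-88384716, minus strand): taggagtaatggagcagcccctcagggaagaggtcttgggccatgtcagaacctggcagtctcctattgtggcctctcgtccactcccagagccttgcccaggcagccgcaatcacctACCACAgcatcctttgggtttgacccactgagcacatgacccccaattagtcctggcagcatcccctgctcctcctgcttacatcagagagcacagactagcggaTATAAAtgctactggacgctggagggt
*Spp1* (chr5:104434861-104435110, plus strand): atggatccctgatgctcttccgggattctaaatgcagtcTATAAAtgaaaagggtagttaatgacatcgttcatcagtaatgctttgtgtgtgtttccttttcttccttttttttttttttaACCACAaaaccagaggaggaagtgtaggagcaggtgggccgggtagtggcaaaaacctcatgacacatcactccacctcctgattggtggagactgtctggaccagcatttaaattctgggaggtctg
*Mmp13* (chr9:7272264-7272513, plus strand): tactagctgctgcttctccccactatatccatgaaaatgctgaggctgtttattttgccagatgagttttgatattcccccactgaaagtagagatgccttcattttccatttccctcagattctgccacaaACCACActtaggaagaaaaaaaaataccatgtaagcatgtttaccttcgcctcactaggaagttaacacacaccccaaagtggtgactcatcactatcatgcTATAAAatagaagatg
*Acan* (chr7:79052976-79053225, plus strand): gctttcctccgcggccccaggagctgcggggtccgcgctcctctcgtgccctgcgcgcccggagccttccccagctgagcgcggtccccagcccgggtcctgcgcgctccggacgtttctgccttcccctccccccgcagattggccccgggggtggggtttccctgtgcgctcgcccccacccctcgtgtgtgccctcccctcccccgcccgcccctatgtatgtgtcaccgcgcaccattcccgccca
*Cytl1* (chr5:37735269-37735518, plus strand): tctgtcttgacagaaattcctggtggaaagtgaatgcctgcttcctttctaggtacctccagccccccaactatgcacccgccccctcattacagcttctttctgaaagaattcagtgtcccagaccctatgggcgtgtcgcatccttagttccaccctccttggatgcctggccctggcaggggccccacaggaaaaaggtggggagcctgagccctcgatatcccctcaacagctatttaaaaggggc
The RUNX core began 132 bases before the start of *Bglap*, 128 before that of *Spp1* and 118 before that of *Mmp13*, while the 250 bases of *Acan* and *Cytl1* held neither set of letters. TATAAA began 27 bases before the start of *Bglap* and 16 before that of *Mmp13*. In *Spp1* these letters lay 211 bases from the start, and whether they act as a TATA box was not tested. *Acan* had 74.4% G and C and 26 CpG sites in this stretch, against 40.4% and 1 CpG in *Mmp13*. Of the 8633 genes tested that had a promoter in the table, 10% held the RUNX core and 3.70% held TATAAA in 250 bases. Among genes more than 2-fold higher in bone these shares were 10.2% and 5.40% of 1075, and among those more than 2-fold lower 7.65% and 3.03% of 824. These promoters were chosen after their sequences were seen, and the core is short. The RUNX core was about as frequent among genes more than 2-fold higher in bone (10.2%) as among all genes (10%). TATAAA was more frequent among them (5.40% against 3.70%), and no difference between shares was tested. A match is a description of the letters and not a binding site.

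Genes of mineralization and phosphate handling were mostly higher in bone, 8 of 10 tested of 11 listed, against 17.2% of all genes, with none lower and a median of 2.23 (2.86 without MC replicate 1). *Phex*, the osteocyte peptidase that is lost in X-linked hypophosphatemia, had 58.2, 51.6 and 85.9 FPKM in bone and 2.06, 0.968 and 0.202 FPKM in MC (difference 5.95, SE 0.79; 7.23 without MC replicate 1). *Alpl*, the alkaline phosphatase that releases phosphate from pyrophosphate, had 163, 155 and 225 FPKM in bone and 113, 25.8 and 6.02 FPKM in MC. The MC libraries were thus spread over a wider range than the gap between the tissues, and the difference of 2.49 (SE 0.64, limma adjusted p = 0.00739) was 3.91 without MC replicate 1 and 1.34 without MC replicate 3. *Smpd3*, a sphingomyelinase needed for mineralization, depended on that library even more, with 35.3, 0.143 and 0.845 FPKM in MC and a difference of 2.74 with and 6.94 without it. *Ank*, which moves pyrophosphate out of the cell, was at 16.3, 20.1 and 23.9 FPKM in bone and 3.87, 6.65 and 5.34 FPKM in MC (difference 1.98, SE 0.26). *Enpp1*, which makes pyrophosphate outside the cell, had 12.5, 14.8 and 21.1 FPKM in bone and 0.977, 7.89 and 8.31 FPKM in MC. Its difference was 1.94 (SE 0.51), and without MC replicate 1 it was 1.05 with an adjusted p of 0.0585. *Sost*, which encodes the osteocyte inhibitor sclerostin, was at 1.57, 1.10 and 2.73 FPKM in bone with no fragment in MC, at least 28.4-fold higher. The phosphate importers *Slc20a1* (-0.80, SE 0.31) and *Slc20a2* (0.64, SE 0.28) did not pass.

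The transcription factors of osteoblasts did not form a single pattern, with 6 of 11 tested higher and 3 lower in bone (17.2% and 15.6% of all genes). *Dlx3* had the largest difference (3.97, SE 0.96), with 23.5, 20.1 and 40.1 FPKM in bone and 6.23, 0 and 1.17 FPKM in MC, and the difference was 6.45 without MC replicate 1. *Sp7* (osterix), which acts after *Runx2*, differed by 2.16 (SE 0.51) and by 3.65 without MC replicate 1. *Runx2*, the regulator of the osteoblast lineage, had 59.0, 50.5 and 66.2 FPKM in bone and 62.0, 19.9 and 9.64 FPKM in MC. Its libraries overlapped because of MC replicate 1, and the difference of 1.25 (SE 0.37, limma adjusted p = 0.0173) became 2.06 without it. Leaving out replicate 2 or 3 of either tissue instead ended the call of *Runx2* (0.61 to 1.25, adjusted p = 0.0565 to 0.159). *Mef2c*, a factor of bone and cartilage maturation, was higher by 2.03 (SE 0.25). *Msx2*, a homeobox factor of craniofacial mesenchyme, was lower in bone, at 1.34, 1.02 and 1.02 FPKM against 9.95, 22.1 and 7.45 FPKM in MC (difference -3.32, SE 0.43). *Msx1* (-0.92, SE 0.22) and *Dlx6* (-1.47, SE 0.32) were also lower, and *Dlx5* did not pass (-0.39, SE 0.18). *Msx1* missed the threshold without bone replicate 2 (adjusted p = 0.0525).

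Enzymes that fold, modify and crosslink collagen were mostly higher in bone, with 14 of 22 higher, 3 lower (17.2% and 15.6% of all genes) and a median of 1.08. The prolyl hydroxylases were split. *P4ha2* had 29.7, 39.8 and 42.2 FPKM in bone and 9.63, 5.75 and 6.62 FPKM in MC (difference 2.29, SE 0.29), whereas *P4ha3* was lower in bone, at 21.5, 17.8 and 11.1 FPKM against 18.9, 48.0 and 40.8 FPKM (difference -1.03, SE 0.30). The call of *P4ha3* was lost without replicate 2 or 3 of either tissue (adjusted p = 0.0809 to 0.175), and its difference ranged from -1.60 without bone replicate 1 to -0.59 without bone replicate 3. The lysyl oxidases were split likewise. *Lox*, which crosslinks collagen, had 242, 188 and 210 FPKM in bone and 65.6, 55.0 and 48.5 FPKM in MC (difference 1.92, SE 0.24). *Loxl1*, which is known for elastin, was lower in bone (difference -1.59, SE 0.25) and *Loxl4* higher (2.13, SE 0.62), although *Loxl4* differed by 1.25 without MC replicate 1, with an adjusted p of 0.0779. *Serpinh1*, the chaperone of procollagen also called HSP47, had 247, 249 and 291 FPKM in bone and 131, 76.5 and 75.5 FPKM in MC. Of the small leucine-rich proteoglycans, 2 of 5 were higher in bone, against 17.2% of all genes. They were *Dcn*, at 182, 190 and 206 FPKM against 12.6, 27.0 and 31.3 FPKM (difference 3.15, SE 0.29), and *Lum* (1.06, SE 0.14), while *Bgn*, *Ogn* and *Aspn* differed by -0.26 to 0.02 and did not pass.

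Cartilage collagens were lower in bone in 5 of 7 genes, against 15.6% of all genes in that direction, with a median of -3.65 (-4.79 without MC replicate 1). The chains of type IX collagen, which coats type II fibrils, had the largest differences. *Col9a1* had 0.206, 0.0520 and 0.229 FPKM in bone and 6.17, 38.7 and 38.8 FPKM in MC (difference -7.09, SE 1.24). *Col9a3* differed by -6.93 (SE 1.56) and *Col9a2* by -5.53 (SE 0.90), so that all 3 chains were nearly absent from bone. Without MC replicate 1 these differences were -8.06, -8.23 and -6.26. *Col2a1* differed by -3.65 (SE 0.66, limma adjusted p = 0.000591) and by -4.79 without MC replicate 1 (-2.68 was the smallest with another library left out). *Col27a1*, a further fibrillar collagen of cartilage, was also lower (-2.37, SE 0.40). The chains of type XI collagen differed from the rest. *Col11a1* was higher in bone, at 206, 163 and 274 FPKM against 80.2, 103 and 96.0 FPKM in MC (difference 1.18, SE 0.20). *Col11a2* had 32.4, 20 and 33.0 FPKM in bone and 8.22, 76.1 and 75.5 FPKM in MC, where replicate 1 lay below bone and the others above it. It did not pass (-0.41, SE 0.53), but without MC replicate 1 it was lower by 1.46 on the log2 scale with an adjusted p of 0.00377.

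Among the proteoglycans and other proteins of cartilage matrix, 4 of 10 tested genes were lower in bone (15.6% of all genes) and none was higher. The other 10 of the 20 listed genes exceeded 1 FPKM in too few libraries to be tested. *Acan*, the gene of aggrecan, had 0.902, 0.494 and 0.610 FPKM in bone and 13.0, 30.5 and 39.7 FPKM in MC (difference -5.31, SE 0.65). *Cytl1*, a small secreted protein of chondrocytes, had no fragment in any bone library and 7.08, 73.9 and 37.2 FPKM in MC. It was at least 480-fold lower in bone, with bone set at 3 fragments over its libraries, and it had the largest difference toward MC of the genes named by size. *Cnmd*, which encodes chondromodulin, an inhibitor of vessel growth, had 0.0898, 0.0984 and 0.0382 FPKM in bone and 5.89, 25.5 and 34.7 FPKM in MC (difference -7.46, SE 1.64; -8.47 without MC replicate 1). *Comp*, a protein that binds cartilage collagens, was at 1.65, 6.47 and 8.37 FPKM in MC and below 0.06 FPKM in bone (difference -6.08, SE 1.26). In all of these genes MC replicate 1 was the lowest MC library, yet it lay above every bone library. *Hapln1*, which links aggrecan to hyaluronan, did not follow this pattern, with 8.52, 6.18 and 6.81 FPKM in bone and 1.65, 9.38 and 10.7 FPKM in MC. *Vcan*, the proteoglycan versican of loose mesenchyme, was abundant in both tissues and did not pass (0.31, SE 0.27).

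The SOX factors of chondrocytes were lower in bone. *Sox5* had 0.811, 0.496 and 0.487 FPKM in bone and 2.5, 6.37 and 5.93 FPKM in MC (difference -2.87, SE 0.47). *Sox9* differed by -1.26 (SE 0.37, limma adjusted p = 0.0161) with overlapping libraries, and by -1.93 without MC replicate 1, but it did not pass without replicate 2 or 3 of either tissue (adjusted p = 0.0525 to 0.132). *Sox6* differed by -0.72 (SE 0.21), and did not pass without replicate 1 or 2 of either tissue (adjusted p = 0.0547 to 0.0714). In all, 3 of 5 tested factors were lower (2 without MC replicate 1), against 15.6% of all genes, and none was higher, and *Foxa2*, *Foxa3*, *Nkx3-2* and *Zfp219* were too low to be tested.

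Signals that pace cartilage growth were unevenly placed. *Pthlh*, the parathyroid hormone-related peptide that holds chondrocytes in proliferation, was at 0.730, 0.400 and 0.276 FPKM in bone and 2.15, 7.94 and 16.5 FPKM in MC (difference -4.50, SE 0.66; -5.34 to -2.64 with any 1 library left out, the smallest without bone replicate 3). Its receptor gene *Pth1r* was higher in bone, at 29.0, 29.6 and 44.4 FPKM against 12.6, 7.50 and 6.49 FPKM (difference 1.90, SE 0.25). Ligand and receptor thus differed in opposite directions. *Ihh*, the hedgehog ligand of growth plates, was at 0.479, 0.437 and 0.612 FPKM in bone with no fragment in MC and was too low to be tested. The hedgehog targets *Gli1* (-1.70, SE 0.27) and *Hhip* (-2.19, SE 0.49) were lower in bone, and *Ptch1* did not pass, with 83.5, 30.1 and 18.9 FPKM in MC around 29.5, 27.9 and 35.5 FPKM in bone. *Col10a1*, the collagen of hypertrophic chondrocytes, was near 1 FPKM in both tissues, at 0.686, 0.410 and 0.761 in bone and 1.48, 2.48 and 0.521 in MC, and did not pass (-1.16, SE 0.70). *Panx3*, a channel of osteoblasts and hypertrophic chondrocytes, was higher in bone, at 191, 191 and 216 FPKM against 56.3, 11.9 and 6.05 FPKM (difference 3.30, SE 0.44; 4.53 without MC replicate 1).

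**Figure D4:**
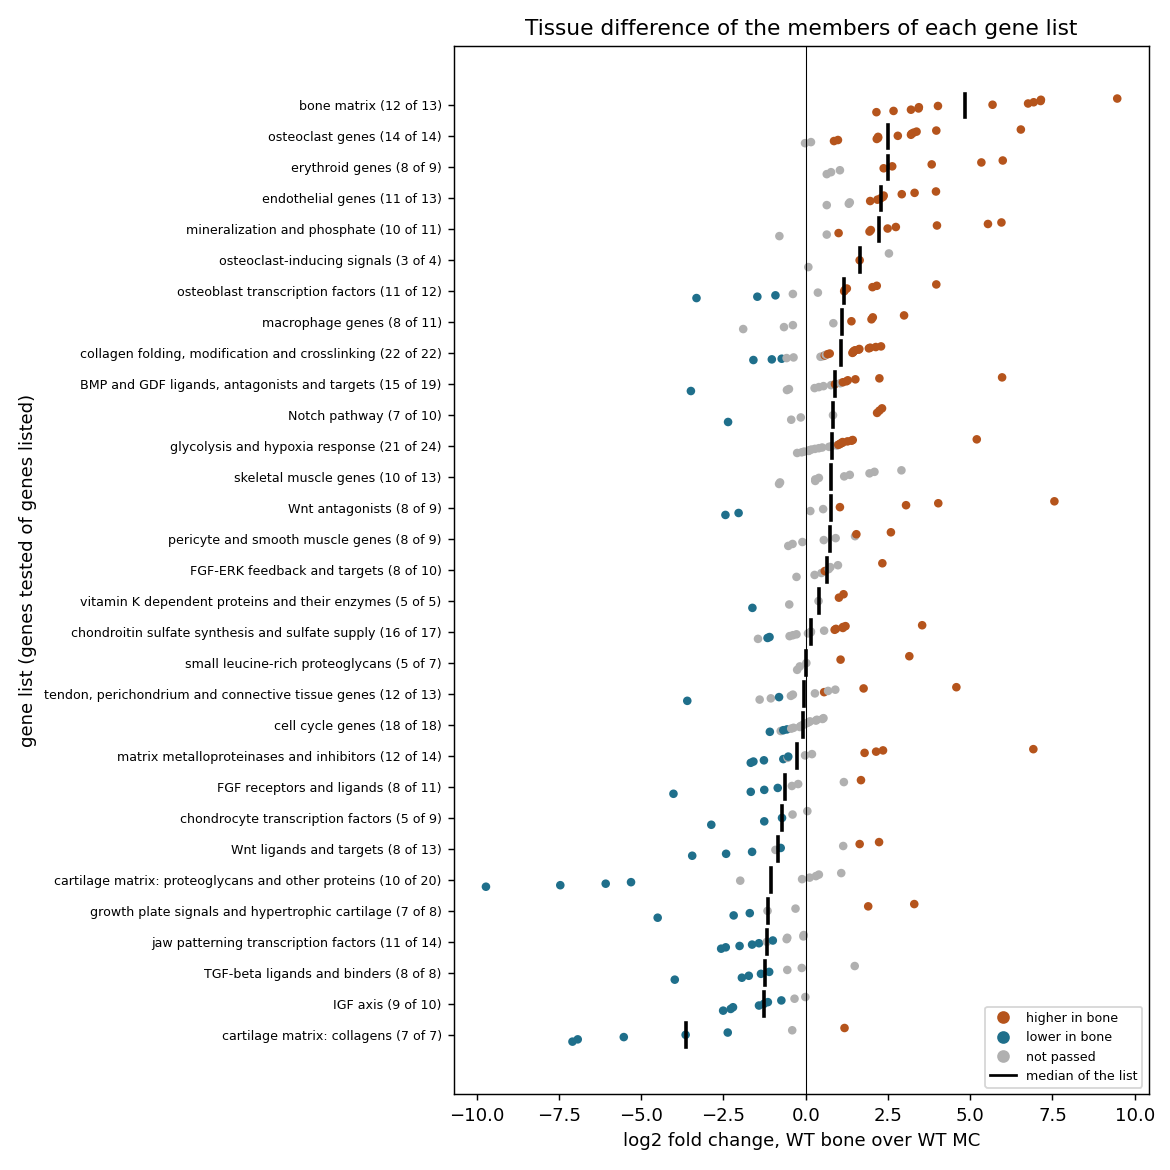
Log2 fold change of WT bone over WT MC for each tested member of 31 gene lists with at least 3 members tested, ordered by the median (black line). Lists of bone matrix, osteoclasts, erythroid cells and endothelium lay to the right (higher in bone), and lists of cartilage collagens, the IGF axis, TGF-beta and jaw patterning factors to the left, with grey points for members that did not pass.

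*Fgfr2* itself was lower in bone. It had 51.9, 37.8 and 36.2 FPKM in bone and 106, 80.8 and 47.2 FPKM in MC, and bone replicate 1 lay above MC replicate 3. The difference was -0.85 (SE 0.20, limma adjusted p = 0.00432), or -0.66 without MC replicate 1, and it was -0.56 (SE 0.20) in *Fgfr2+/S252W* embryos. Of the FGF receptors and ligands, 4 of 8 tested were lower and 1 was higher in bone, against 15.6% and 17.2% of all genes. *Fgf18*, a ligand of FGFR2 and FGFR3 in skeletal tissue, had 0.767, 0.480 and 0.513 FPKM in bone and 6.73, 11.2 and 12.4 FPKM in MC (difference -4.02, SE 0.48). *Fgfrl1*, a receptor that lacks the kinase domain, was lower by 1.67 on the log2 scale (SE 0.41) and *Fgf10* by 1.26 (SE 0.39), while *Fgf1* was higher (1.68, SE 0.54). Without MC replicate 2 the difference of *Fgfrl1* was -1.10. *Fgf10* lost its call without replicate 1 or 3 of either tissue (adjusted p = 0.0655 to 0.147), and *Fgf1* without bone replicate 1 or 2 or MC replicate 2 or 3 (0.0639 to 0.125). *Fgfr1* (-0.23, SE 0.38) and *Fgfr3* (-0.42, SE 0.31) did not pass. Of 8 tested genes that respond to FGF and ERK signaling, *Spry4* (2.33, SE 0.64) and *Spred1* (0.58, SE 0.19) were higher in bone, against 17.2% of all genes, but neither passed without MC replicate 1 (adjusted p = 0.134 and 0.0677). *Spry4* differed by 1.28 without MC replicate 1 and by 3.68 without MC replicate 3.

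Ligands and targets of WNT signaling were mixed, 2 of 8 tested being higher and 4 lower in bone, against 17.2% and 15.6% of all genes. *Tcf7*, a transcription factor of the pathway, was higher (2.23, SE 0.55), as was *Wnt10b* (1.64, SE 0.50). *Lgr5* (-3.45, SE 0.78), a receptor that raises WNT signaling, *Nkd1* (-2.42, SE 0.33), a feedback inhibitor, *Lef1* (-1.63, SE 0.39) and *Wnt5a* (-0.76, SE 0.24) were lower. *Tcf7* differed by 4.27 without MC replicate 1. Calls were lost for *Wnt10b* without MC replicate 2 (adjusted p = 0.0987), for *Lgr5* without bone replicate 3 (-2.08, adjusted p = 0.0651) and for *Wnt5a* without bone replicate 3 or MC replicate 2 or 3 (0.0556 to 0.244). *Lgr5* differed by -4.72 without MC replicate 1, and *Wnt5a* by -0.39 without bone replicate 3. Among the antagonists, *Dkk1*, which blocks the LRP co-receptors, had 22, 14.2 and 46.2 FPKM in bone and 0.299, 0 and 0.0747 FPKM in MC (difference 7.56, SE 0.84; 6.89 to 8.64 with any 1 library left out). *Wif1*, which binds WNT ligands, had 31.3, 26.2 and 51.4 FPKM in bone and 10.9, 0.804 and 1.58 FPKM in MC (difference 3.05, SE 0.52; 4.95 without MC replicate 1). *Sfrp2* was on the side of MC, at 14, 7.89 and 9.70 FPKM in bone against 22.2, 80.2 and 62.6 FPKM (difference -2.44, SE 0.39), and *Dkk2* likewise (-2.04, SE 0.47), which did not pass without replicate 3 of bone or of MC (adjusted p = 0.152 and 0.0821) and was at -1.03 without that bone library. Each tissue thus held its own antagonists at the higher level. In all, 4 of 8 tested antagonists were higher and 2 lower (17.2% and 15.6% of all genes), and *Sfrp4* (4.03, SE 1.39) did not pass without replicate 1 or 2 of either tissue (adjusted p = 0.101 to 0.132) and was at 2.21 without MC replicate 1.

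BMP and GDF genes were higher in bone in 7 of 15 tested and lower in 1 (17.2% and 15.6% of all genes), or 6 and 2 without MC replicate 1. *Bmp8a* had 3.43, 2.55 and 6.68 FPKM in bone and 0.113, 0 and 0 FPKM in MC, a ratio of 77.5 (95% counting interval 26.4 to 377). *Bmp3*, an inhibitory member made by bone, was at 32.2, 18.6 and 32.5 FPKM in bone and 7.06, 7.41 and 3.49 FPKM in MC (difference 2.24, SE 0.33), and the targets *Id1* (1.51, SE 0.38) and *Id3* (1.13, SE 0.24) were also higher. *Gdf10* was lower in bone, at 3.14, 1.22 and 1.26 FPKM against 18.4, 23.7 and 20.6 FPKM in MC (difference -3.49, SE 0.39). *Gdf7*, which was not on the list and was named by size, had 0.0924, 0.0506 and 0.157 FPKM in bone and 6.00, 19.8 and 4.12 FPKM in MC (difference -6.08, SE 0.69). *Gdf5*, the related joint ligand, was at 0.235, 11.7 and 5.08 FPKM in MC and at most 0.168 FPKM in bone. It exceeded 1 FPKM only in MC replicates 2 and 3 and was not tested.

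TGF-beta ligands and their binding proteins were lower in bone in 5 of 8 genes, against 15.6% of all genes, and higher in none. *Tgfb3* had 15.1, 13.1 and 11.9 FPKM in bone and 35.8, 59.7 and 62.0 FPKM in MC (difference -1.94, SE 0.22), and *Tgfb2* differed by -1.11 (SE 0.25). *Ltbp2* (-3.98, SE 0.37), *Ltbp3* (-1.73, SE 0.36) and *Ltbp4* (-1.36, SE 0.40), of the family that anchors latent TGF-beta to matrix, were lower, and *Ltbp1* did not pass (-0.12, SE 0.27). *Tgfb1* stood on the other side without passing, at 14.6, 13.0 and 17.6 FPKM in bone and 8.81, 8.57 and 0.917 FPKM in MC (1.49, SE 0.57), and it passed without MC replicate 1 (2.23, adjusted p = 0.0299).

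The insulin-like growth factor (IGF) axis was lower in bone in 7 of 9 tested genes, against 15.6% of all genes, and higher in none, with a median of -1.27. *Igf2*, the fetal growth factor, was among the most abundant genes, with 564, 485 and 379 FPKM in bone and 839, 1510 and 1130 FPKM in MC (difference -1.27, SE 0.19). *Igf1* had 14.3, 10.7 and 7.36 FPKM in bone and 22.5, 90.8 and 74.2 FPKM in MC (difference -2.51, SE 0.50), and it did not pass in edgeR or DESeq2. Every MC library lay above every bone library for both ligands. The receptor *Igf1r* (-1.15, SE 0.19) and the binding proteins *Igfbp2*, *Igfbp4*, *Igfbp5* and *Igfbp7* (-2.28 to -0.74) were lower as well, while *Igf2r* and *Igfbp3* did not pass. *Igfbp2* lost its call without bone replicate 2 or 3 or MC replicate 3 (adjusted p = 0.0523 to 0.181) and was at -1.32 without that MC library, and *Igfbp5* without replicate 2 of either tissue (0.0878 to 0.0982). *H19*, the imprinted RNA beside *Igf2*, was also lower in bone, at 1170, 835 and 552 FPKM against 2320, 2360 and 2230 FPKM (difference -1.51, SE 0.21). *Meg3*, an imprinted RNA of a different cluster, had 1.63, 0.425 and 0.181 FPKM in bone and 4.72, 29.8 and 36.7 FPKM in MC (difference -5.81, SE 0.70; -7.00 to -4.32 with any 1 library left out).

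Transcription factors that pattern the jaw were lower in bone in 6 of 11 tested genes, against 15.6% of all genes, and higher in none. *Pitx1* had 2.84, 2.36 and 2.04 FPKM in bone and 7.31, 21.5 and 12.6 FPKM in MC (difference -2.43, SE 0.34). *Prrx1*, a factor of skeletogenic mesenchyme, had 29.5, 22.6 and 17.4 FPKM in bone and 56.0, 83.0 and 74.8 FPKM in MC (difference -1.63, SE 0.22). *Alx4* (-2.01, SE 0.23), *Hand2* (-2.57, SE 0.59), which specifies the distal mandible, *Prrx2* (-1.42, SE 0.39) and *Barx1* (-1, SE 0.34) were the others. *Barx1* lost its call without replicate 2 or 3 of either tissue (adjusted p = 0.133 to 0.282), and *Hand2* without replicate 3 of either tissue (0.0685 to 0.0688). Without MC replicate 3 *Barx1* was at -0.54 and *Hand2* at -1.56, and without MC replicate 1 *Barx1* was at -1.60. *Dlx1*, *Dlx2*, *Gsc*, *Lhx6* and *Lhx8* did not pass, with differences between -1.18 and -0.06.

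Osteoclast genes were higher in bone in 12 of 14 genes, against 17.2% of all genes, with none lower and a median of 2.5 (3.47 without MC replicate 1). *Ctsk*, the cathepsin that degrades bone collagen, had 257, 310 and 259 FPKM in bone and 45.1, 18.7 and 25.0 FPKM in MC (difference 3.22, SE 0.24). *Acp5*, which encodes tartrate-resistant acid phosphatase, had 83.9, 106 and 104 FPKM in bone and 18.6, 4.81 and 5.17 FPKM in MC (difference 3.28, SE 0.37; 4.34 without MC replicate 1). *Calcr*, the calcitonin receptor, was at 1.84, 1.67 and 1.63 FPKM in bone with no fragment in MC, at least 49.0-fold higher. Among the MC libraries this lineage was highest in replicate 1, where the 14 genes summed to 143 FPKM against 75.2 and 72.9, and to 511, 641 and 621 in bone. *Nfatc1* (-0.02, SE 0.19) and *Clcn7* (0.16, SE 0.26) did not pass. Of the signals that form osteoclasts, *Csf1* was higher (1.64, SE 0.31), while *Tnfsf11* (RANKL) at 1.6, 2.58 and 1.78 FPKM in bone and 1.79, 0 and 0 FPKM in MC did not pass, except without MC replicate 1 (adjusted p = 0.0155). Its decoy receptor *Tnfrsf11b* did not pass (0.08, SE 0.41).

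Proteases and inhibitors of matrix were divided, 4 of 12 tested being higher and 5 lower in bone, against 17.2% and 15.6% of all genes. *Mmp13*, collagenase 3, had 492, 525 and 406 FPKM in bone and 8.93, 2.00 and 1.02 FPKM in MC (difference 6.92, SE 0.95; 8.30 without MC replicate 1). *Mmp14*, the membrane-bound activator of MMP2, was lower in bone, at 48.1, 45.2 and 57.0 FPKM against 100, 159 and 111 FPKM (difference -1.27, SE 0.17). The inhibitors went opposite ways. *Timp1* was higher in bone (2.14, SE 0.33), *Timp2* was lower, at 44.7, 42.5 and 50.4 FPKM against 113, 199 and 140 FPKM (difference -1.67, SE 0.19), and *Timp3* did not pass (0.19, SE 0.19). *Mgp*, the inhibitor of cartilage calcification, was lower in bone, at 33.5, 33.0 and 22.3 FPKM against 62.1, 132 and 98.8 FPKM (difference -1.62, SE 0.37). It is carboxylated with the help of vitamin K. *Ggcx*, the carboxylase, did not pass (0.39, SE 0.20), and *Vkorc1*, the reductase that recycles the vitamin, was higher in bone (1.15, SE 0.25). Over the 5 genes of this list 2 were higher and 1 lower, against 17.2% and 15.6% of all genes.

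Genes of vessels and blood accompanied bone. Of the endothelial genes, 8 of 11 tested were higher in bone (17.2% of all genes) and none lower, with a median of 2.28 (3.20 without MC replicate 1). *Cdh5*, the cadherin of endothelial junctions, had 18.6, 26.5 and 26.5 FPKM in bone and 6.95, 3.10 and 3.18 FPKM in MC (difference 2.37, SE 0.38), and *Emcn* had 10.8, 12.3 and 10.7 FPKM in bone and 1.37, 2.99 and 0.210 FPKM in MC (difference 3.31, SE 0.62). The 13 listed genes summed to 76.0, 93.5 and 94.3 FPKM in bone and to 30.4, 25.7 and 11.5 FPKM in MC. Erythroid genes were higher in 5 of 8 (4 without MC replicate 1), against 17.2% of all genes, with *Hbb-bs* at 965, 1160 and 997 FPKM in bone and 98.5, 153 and 313 FPKM in MC (difference 2.63, SE 0.44). Among these, *Hbb-y* lost its call in 5 of the 6 fits with a library left out (adjusted p = 0.0613 to 0.0987). For *Hbb-bs*, MC replicate 1 was the lowest MC library, not the highest, and the globin copies share sequence, so that *Hba-a1* (1.04, SE 0.49) and *Hba-a2* (0.64, SE 0.43) are uncertain. Macrophage genes were higher in 4 of 8 tested, against 17.2% of all genes, with a median of 1.11. In *Fgfr2+/S252W* embryos 3 of them were higher and 4 lower (18.8% and 17.4% of all genes), with a median of -1.62. *Csf1r* had 11.7, 11.8 and 12.4 FPKM in bone and 2.86, 2.23 and 3.90 FPKM in MC (difference 2.00, SE 0.29), while *C1qb* (-0.66, SE 0.52) and *C1qc* (-1.90, SE 0.72) did not pass, and were lower in bone without MC replicate 1 (adjusted p = 0.00993 and 0.00107).

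Markers of tissues next to the captured regions were also measured. Skeletal muscle genes passed in neither direction (0 of 10 tested by limma, 2 at an unadjusted p below 0.05, 0 by edgeR and 2 by DESeq2), with an SE of at least 0.86 for each. Their summed level was 125, 115 and 16.0 FPKM in bone and 1.94, 104 and 16.4 FPKM in MC. Muscle transcripts were therefore high in bone replicates 1 and 2 and MC replicate 2 and nearly absent from MC replicate 1. Epithelial genes summed to at most 1.66 FPKM in any library, with *Krt14* at 0 in all, and nerve and Schwann cell genes to at most 2.43 FPKM, with 1 of 8 tested. This gene, *Tubb3*, did not pass (1.59, SE 0.93) but was higher in bone without MC replicate 1 (3.34, adjusted p = 0.0296). Of the genes of tendon, perichondrium and connective tissue, 3 of 12 were higher and 2 lower (17.2% and 15.6% of all genes), and without MC replicate 1 these counts were 6 and 2. *Tnmd* (tenomodulin) was higher in bone, at 6.01, 3.32 and 0.900 FPKM against 0.268, 0 and 0 FPKM (difference 4.58, SE 0.87), and *Col14a1*, a collagen of perichondrium and tendon, was lower (-3.60, SE 0.48). What part these neighbouring tissues had in the tissue differences was not tested.

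**Figure D5:**
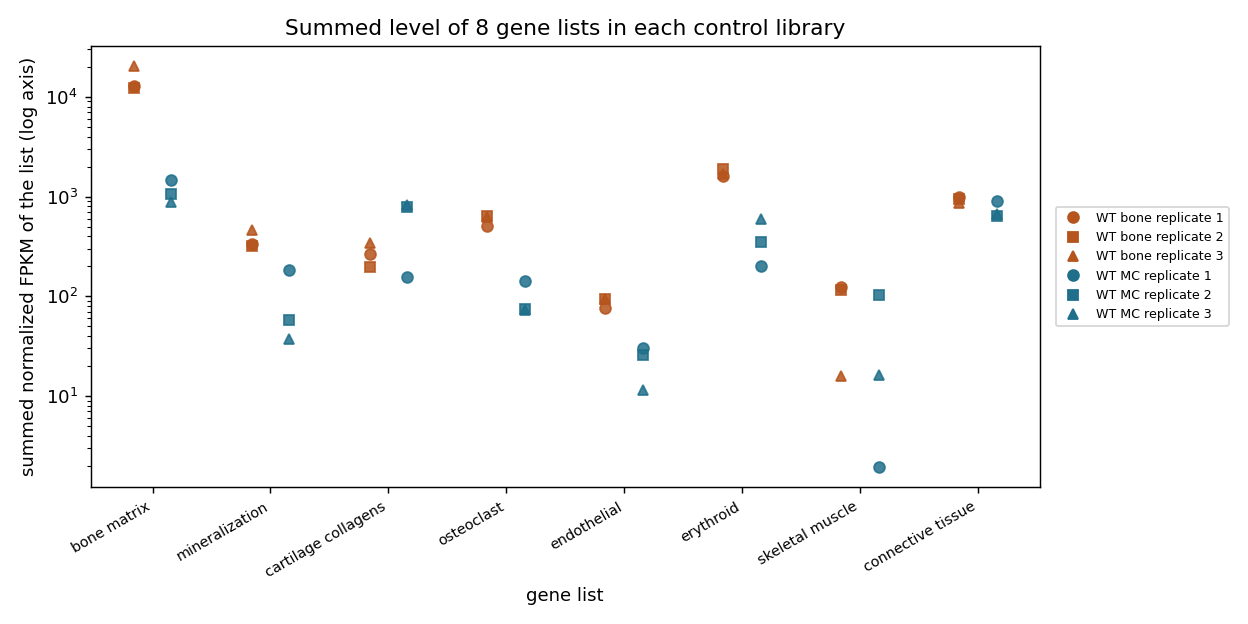
Summed normalized FPKM (log axis) of 8 gene lists in each WT bone (orange) and WT MC (blue) library, with 1 symbol shape per embryo. Bone matrix, osteoclast, endothelial and erythroid genes separated the tissues, and skeletal muscle genes ranged from 1.94 to 125 FPKM without regard to tissue. MC replicate 1 (blue circles) was the highest MC library for mineralization, at 185 FPKM against 322 to 466 in bone. It lay below bone for summed cartilage collagens (156 against 195 to 346), most of which in bone was *Col11a1* (163 to 274). For *Col2a1* and the type IX chains it lay above every bone library.

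The other genes with the largest differences were less familiar in these tissues. Higher in bone were *Cgref1*, a secreted calcium-binding protein (chr5:30933146-30945480 on GRCm38), with 97.7, 90.5 and 85.5 FPKM in bone and 1.91, 0 and 0.136 FPKM in MC (difference 7.56, SE 0.88), and *Mamdc2*, a matrix protein, with 13.9, 10.3 and 20 FPKM in bone and 0, 0.497 and 0.0543 FPKM in MC (difference 7.35, SE 0.96). The amino acid transporter *Slc36a2* (7.34, SE 1.04), the lipase *Lipi* (7.20, SE 0.87) and the choline phosphodiesterase *Enpp6* (7.05, SE 0.95) followed. These 5 genes were between 8.44 and 97.7 FPKM in every bone library and at most 1.91 FPKM in any MC library. With any 1 library left out their differences lay between 5.99 and 9.47. Lower in bone were *Itgbl1*, a secreted relative of the integrin beta chains (chr14:123659971-123975618), with 0.592, 0.123 and 0.0272 FPKM in bone and 6.03, 12.3 and 10.5 FPKM in MC (difference -6.20, SE 0.75; -7.55 to -4.85 with any 1 library left out), and *Cbr2*, a carbonyl reductase, with 3 fragments in bone and 127 in MC, a ratio of 91.6 (95% counting interval 30.6 to 450). *Mir125a* had no fragment in bone and 38 in MC, but the counted stretch is shorter than most fragments and reads of a host transcript cannot be told from the miRNA. All 20 genes named by size had the same direction in *Fgfr2+/S252W* embryos and passed there.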

How the data were processed

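RNA was measured in 18 libraries of mouse mandible, 1 for each of 3 tissues of 6 embryos. The authors used STAR to align paired-end reads to mm10 and assigned fragments to exons of Ensembl release 75 with featureCounts 1.5.0-p1 without regard to strand, so that the deposited values are raw counts. Whether duplicates were removed is not given in the sources used here. Overlapping and antisense genes cannot be separated without strand.

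Counts were analyzed in R 4.3.3 with edgeR 4.0.16 (TMM), limma 3.58.1 (voom, lmFit, eBayes) and DESeq2 1.42.0. A gene was tested when 3 or more of the 6 WT libraries of bone and MC exceeded 1 FPKM (12079 of 38243). A filter over 18 libraries would drop genes used in bone alone. For the filter FPKM was scaled to the total count of a library and not to its normalized depth. A gene below 1 FPKM in all libraries of a tissue was tested only if all 3 libraries of the other tissue exceeded 1 FPKM. The direction of such a gene was set by the filter. All 18 libraries entered the fit, with the embryo as a block and tissue effects within genotype (8 residual and 8.76 prior degrees of freedom). P-values carry a Benjamini-Hochberg adjustment over all genes tested, and a gene passed below 0.05. A gene without fragments in a tissue was set at 3 fragments over its libraries to give a lower bound. With 3 libraries against 3, an exact permutation test could not go below p = 0.1. The pairing of libraries by embryo was taken from the library codes. Deviations from the group means did not correlate within an embryo (-0.0983, -0.00212 and -0.0221 for embryos 1 to 3). No pair of libraries agreed within counting error. Depth was 9510261 to 12623521 fragments in the 6 libraries, and counting error does not include amplification.

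Genes were named by size (the 10 largest differences in each direction at 5 FPKM or more with libraries that did not overlap, predicted genes left out), by level (10 per tissue, mitochondrial genes left out), from 33 lists (391 genes, of which 390 matched and 318 were tested), as markers, and by the interaction with genotype. Further list members are given to complete a list or as values that did not pass. The comparison, lists and markers were chosen with earlier results of these data known. Promoters were searched with Python 3.11.15. The procedure was tested on simulated counts. Alternatives were other tests, filters, normalizations, weights, fits of 6 libraries, fits without the block, and leaving out each library.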

Additional observations from a re-analysis of the deposited data

Results flagged for a closer look

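The difference between bone and MC changed with genotype in 4 of 12079 genes (limma, test of the difference between the WT and the *Fgfr2+/S252W* tissue difference), with 1127 genes at an unadjusted p below 0.05. *Penk*, the gene of proenkephalin, was lower in bone in both genotypes, with a difference of -1.64 (SE 0.23) in WT and -4.14 (SE 0.27) in *Fgfr2+/S252W* embryos, an interaction of 2.5 (SE 0.36, adjusted p = 0.0275). Its levels in WT were 14.1, 10.3 and 9.56 FPKM in bone and 44.0, 34.3 and 27.0 FPKM in MC. *Sfrp1*, a WNT antagonist, differed by 0.53 (SE 0.24) in WT, which did not pass, and by -1.43 (SE 0.22) in *Fgfr2+/S252W* embryos (interaction 1.96, SE 0.32, adjusted p = 0.0426). *Lyz2*, the lysozyme of macrophages, had 34.6, 32.2 and 37.9 FPKM in WT bone and 3.08, 11.7 and 3.01 FPKM in WT MC, and its difference was 2.99 (SE 0.44) in WT and -0.36 (SE 0.34) in *Fgfr2+/S252W* embryos (interaction 3.35, SE 0.55, adjusted p = 0.0426). A near copy, *Lyz1*, makes its level uncertain. *Atp6v1b2*, a subunit of the proton pump of osteoclasts and other cells, was higher in bone in both genotypes, by 1.17 (SE 0.21) in WT and 3.14 (SE 0.25) in *Fgfr2+/S252W* embryos (interaction -1.97, SE 0.33, adjusted p = 0.0426). Over 16 fits that allow this test, *Penk* passed in 13, *Sfrp1* and *Atp6v1b2* in 8 each and *Lyz2* in 7, with adjusted p-values up to 0.181, 0.312, 0.312 and 0.337.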

How the results depend on the processing

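No gene that passed reversed its direction under any alternative. With no replicate block 4220 genes passed, and equal embryo numbers showed no shared deviation, so the block moved no count by over 1.5 times. The 6 libraries alone gave 2182 genes (1125 higher and 1057 lower in bone) with the replicate block and 2607 (1139 lower) without it. Leaving out 1 library gave 2556 to 4299 genes in all, 1382 to 2186 higher and 1174 to 2113 lower, with the lowest counts without WT bone replicate 2. The other 8 fits with all libraries gave 2880 to 4670 genes, and without a filter the median of all genes moved to -0.14. The interaction with genotype held for 1 gene in edgeR's quasi-likelihood test, 56 in DESeq2, 1 with mitochondrial genes and *Gm42418* removed, 0 without a filter and 1 with sample quality weights, and for 0 to 14 genes with 1 library left out (0 without WT bone replicate 1 or 2, 14 without WT bone replicate 3), so it depends on the processing. Values that changed sign belonged to genes that did not pass. *Trps1* was at -0.03 in DESeq2 and -0.12 with quality weights, and ranged from -0.30 to 0.32 with a library left out. *Bgn* was at -0.0028 with 6 libraries and the replicate block, -0.002 without the block, -0.03 in DESeq2, -0.02 with DESeq2 size factors and -0.01 with quality weights, and ranged from -0.21 to 0.24 with a library left out. *Dkk3* was at -0.01 in DESeq2 and ranged from -0.41 to 0.57 with a library left out. With a library left out *Vcan* ranged from -0.09 to 0.66, *Ptch1* from -0.88 to 0.38, *Tnfrsf11b* from -0.45 to 0.56, *Acta1* from -0.78 to 2.72 and *Fgfr1* from -0.63 to 0.27. The causes of these changes were not tested. Among the genes named, *Ankrd37*, *Bnip3*, *Wnt5a* and *Xylt2* lost their call most often, in 9 alternatives each. Counting error limits genes with few fragments, such as *Cbr2* and *Mir125a*.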

Other observations

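Genes of glycolysis and the response to low oxygen were higher in bone in 9 of 21 tested, against 17.2% of all genes, with none lower and a median of 0.79 (0.44 without MC replicate 1). *Ldha*, lactate dehydrogenase, had 244, 216 and 191 FPKM in bone and 112, 97.3 and 89.9 FPKM in MC (difference 1.12, SE 0.24), and *Gapdh* differed by 1.27 (SE 0.20). *Egln3*, an oxygen sensor induced by low oxygen, was at 2.39, 1.71 and 1.23 FPKM in bone and 0, 0.139 and 0 FPKM in MC, a ratio of 51.1 (95% counting interval 14 to 424). *Vegfa*, a target of the same response, did not pass (0.40, SE 0.35). Genes of the cell cycle mostly did not pass. Of 18 tested, none was higher, and the 3 lower in bone (against 15.6% of all genes) were the D cyclins, with *Ccnd1* at 15.6, 18.1 and 11.9 FPKM in bone and 29.1, 35.3 and 31.3 FPKM in MC (difference -1.09, SE 0.25). *Ccnd3* lost its call without replicate 2 or 3 of either tissue (adjusted p = 0.133 to 0.258; -0.39 without MC replicate 2 and -1.06 without MC replicate 1) and *Ccnd2* without bone replicate 3 (0.0919), while *Cdk1* was higher in bone without MC replicate 1 (0.99, adjusted p = 0.0174). *Mki67* had 25.5, 25.8 and 26.1 FPKM in bone and 36.2, 20.8 and 16.3 FPKM in MC (0.13, SE 0.28).

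In the Notch pathway 3 of 7 tested genes were higher in bone (17.2% of all genes), the targets *Hey1* (2.32, SE 0.34) and *Heyl* (2.24, SE 0.45) and the glycosyltransferase *Lfng* (2.17, SE 0.54), and the ligand *Jag1* was lower, at 1.83, 1.70 and 1.47 FPKM against 6.08, 15.4 and 6.30 FPKM (difference -2.36, SE 0.36). Synthesis of chondroitin sulfate, the sugar chain of aggrecan, was not on the side of cartilage as a whole. Of 16 tested genes 6 were higher in bone, among them *Chst13* (3.54, SE 0.84, or 5.54 without MC replicate 1, which held all of its fragments in MC), *Chsy1* (1.21, SE 0.28) and *Chst11* (1.13, SE 0.37), and 2 were lower, *Slc35d1* (-1.16, SE 0.25) and *Xylt2* (-1.10, SE 0.38), against 17.2% and 15.6% of all genes, but without MC replicate 1 the counts were 4 and 4. *Xylt2* lost its call without bone replicate 2 or 3 or MC replicate 2 (adjusted p = 0.0691 to 0.226) and was at -0.69 without that MC library. Of pericyte and smooth muscle genes, *Acta2* (2.59, SE 0.50) and *Rgs5* (1.54, SE 0.46) were higher in bone among 8 tested (17.2% of all genes), and none was lower, although *Cspg4* was without MC replicate 1 (-0.85, adjusted p = 0.0398). *Rgs5* did not pass in DESeq2 or without bone replicate 1 or 2 or MC replicate 2 or 3 (adjusted p = 0.0637 to 0.119).

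With mitochondrial genes left out, the 3 highest levels of tested genes in each tissue belonged to *Gm23935*, *Gm42418* and *Gm24270*, which were lower in bone, as was *Mir6236* at a lower level. *Gm42418* differed by -2.67 (SE 0.32; not passing in DESeq2), *Gm23935* by -3.16 (SE 0.42), *Gm24270* by -3.13 and *Mir6236* by -1.89 (SE 0.26). *Lars2*, a mitochondrial synthetase gene, was at 1350, 1210 and 1030 FPKM in bone and 7050, 10800 and 21100 FPKM in MC (difference -3.28, SE 0.30). What the removal of ribosomal RNA and the amount of input RNA had to do with these levels was not tested.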
